A study of Bos taurus with 12 samples.

Results

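The mitochondrial ribosomal protein genes are the rows of the bovine gene count table whose symbol starts with MRPL or MRPS followed by a digit. There were 78 such rows among 32637 genes, 49 named for the large subunit (MRPL) and 29 for the small subunit (MRPS). The rule reads the symbols alone. RNA-seq was done on expanded blastocysts produced in vitro and collected on Day 7 or Day 8, each cut so that one part gave the sex by PCR and the other part gave RNA. A library was a pool of 2 half-cut embryos of the same sex, amplified with the SMART-Seq HT PLUS kit. The groups were 6 female and 5 male pools with no treatment, and all embryos came from slaughterhouse oocytes and frozen bull semen. Neither the day of collection nor the bull of each pool is given in the sources used here, and neither can be told apart from the differences between pools.

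The mitochondrial ribosome makes the few proteins encoded by the mitochondrial genome, all of them parts of the respiratory chain and the ATP synthase. Its proteins are encoded in the nucleus, made on cytosolic ribosomes and imported, whereas its rRNAs come from the mitochondrial genome. The large subunit forms the peptide bond and the small subunit holds the mRNA and reads the codons. Some of its proteins have homologs in the bacterial ribosome, and others are found only in mitochondria. In early mammalian embryos mitochondria are inherited from the oocyte, and respiration increases around blastocyst formation.

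The libraries held between 6664112 and 16162985 counts in females and between 9942952 and 21392764 in males. The sex labels were checked with the sex-linked transcripts that mark them: XIST was at 52.3 CPM or more in every female and at 3.97 CPM or less in every male, and USP9Y was at 18.9 CPM or more in every male and at 1.22 CPM or less in every female. CPM values are counts relative to the size of the library, after TMM scaling. Marker lists of the cell types that the pools could hold were summed in each library. The 6 inner cell mass genes in the table summed to between 560 and 980 CPM in females and between 792 and 1076 CPM in males. The 10 trophectoderm genes summed to between 7879 and 23154 CPM in females and between 9195 and 36145 CPM in males, with male replicate 5 the highest. The 7 hypoblast genes summed to between 228 and 621 CPM in females and between 208 and 467 CPM in males, and among them SOX17 and FOXA2, with at most 25 and 6 counts in a library, were too low to test. The 7 cumulus cell genes summed to between 7.19 and 32.7 CPM in females and between 5.38 and 29.5 CPM in males. Of the cumulus genes FSHR had between 58 and 359 counts in every library, HAS2, TNFAIP6 and CYP19A1 had at most 61, 45 and 42, and INHA, AMH and FOXL2 had at most 4. In all 4 lists the sexes overlapped, but single genes weigh heavily in such sums. In male replicate 5, POU5F1 gave 737 of the 888 CPM of the inner cell mass list. KRT8 gave 20143 of the 36145 CPM of the trophectoderm list there. None of the 24 tested marker genes of the inner cell mass, trophectoderm, hypoblast and cumulus cells passed edgeR's quasi-likelihood test for a sex difference. Of all tested genes 1.91% passed it. The unadjusted p was under 0.05 for 2 of the 24, PTGS2 and CYP19A1, both lower in males, against 6.95% of all tested genes lower in males. PTGS2, listed for the trophectoderm, averaged 2511 ± 1136 CPM in females against 1204 ± 544 CPM in males (SD, n = 6 and 5). CYP19A1, listed for cumulus cells, averaged 2.47 ± 0.905 CPM in females against 0.860 ± 0.794 CPM in males (SD, n = 6 and 5). Whether the makeup of the pools had a part in the differences below was not tested.

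One library stood apart. In male replicate 5, the members' log2 CPM differed from the mean of the other males with an SD of 0.555 over the 77 tested members, while in the other 10 libraries this SD, taken against their own sex, was between 0.163 and 0.349. Over all tested genes, 36.2% lay more than 2-fold from the other males in that library, and it detected 14937 genes, the fewest of any library. Where a log2 fold change given below moved by over 1.5 times or changed its call without it, both values are given.

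The members were higher in the male pools as a group. All except MRPS36 passed the filter on low counts, which left 77 genes with between 137 and 8580 counts per library. The fitted log2 fold change, male minus female, was above 0 for 73 of the 77, or 94.8%, where 50.5% of all 12802 tested genes were above 0. Its median over the members was 0.30, a fold of 1.23, where the median over all tested genes was 0.01 and over autosomal genes 0.02. The members' share of all counts was 0.986 ± 0.0333% in females against 1.14 ± 0.0661% in males (SD, n = 6 and 5), and the lowest male share of 1.06% was above the highest female share of 1.03%. In pools of this kind, more copies per cell and a larger share of cells that carry the transcripts cannot be told apart.

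Few members passed the test on their own. A call needed an FDR under 0.1, adjusted by Benjamini-Hochberg over all 12802 genes, together with a fold over 1.5, which is a log2 of 0.58. By edgeR's quasi-likelihood test 4 members were called, all higher in males, while 0.414% of all tested genes were called in that direction and 1.91% in either. None was called higher in females, where 1.5% of all tested genes were. The members are all autosomal, and of the 12172 autosomal genes tested 44 were called higher in females. At an unadjusted p under 0.05, 28 members or 36.4% were higher in males, against 6.26% of all tested genes. At that level 0 members were higher in females, against 6.95% of all tested genes and 562 of the 12172 autosomal ones. DESeq2 also called 0 higher in females. In 11 members every male library was above every female library, which held for 1.43% of all tested genes. The median biological coefficient of variation was 0.208 over the members and 0.348 over all tested genes. Shares past a p or with the sexes apart, here and below, also depend on this spread. In 0 members was every male below every female, which held for 1.88% of all tested genes and 88 of the 12172 autosomal ones. Without male replicate 5, 71 members were above 0, 34 were past the unadjusted p and 3 were called. The number of calls depended on single libraries: leaving out any one of 6 others (female replicates 2, 4, 5 and 6 and male replicates 2 and 3) left 0 called by edgeR, with 21 or more members still at an unadjusted p under 0.05. With TMM factors from autosomal genes 1 was called, and with the title number of the pools as a block 0 were, with 22 at an unadjusted p under 0.05.

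**Figure D1:**
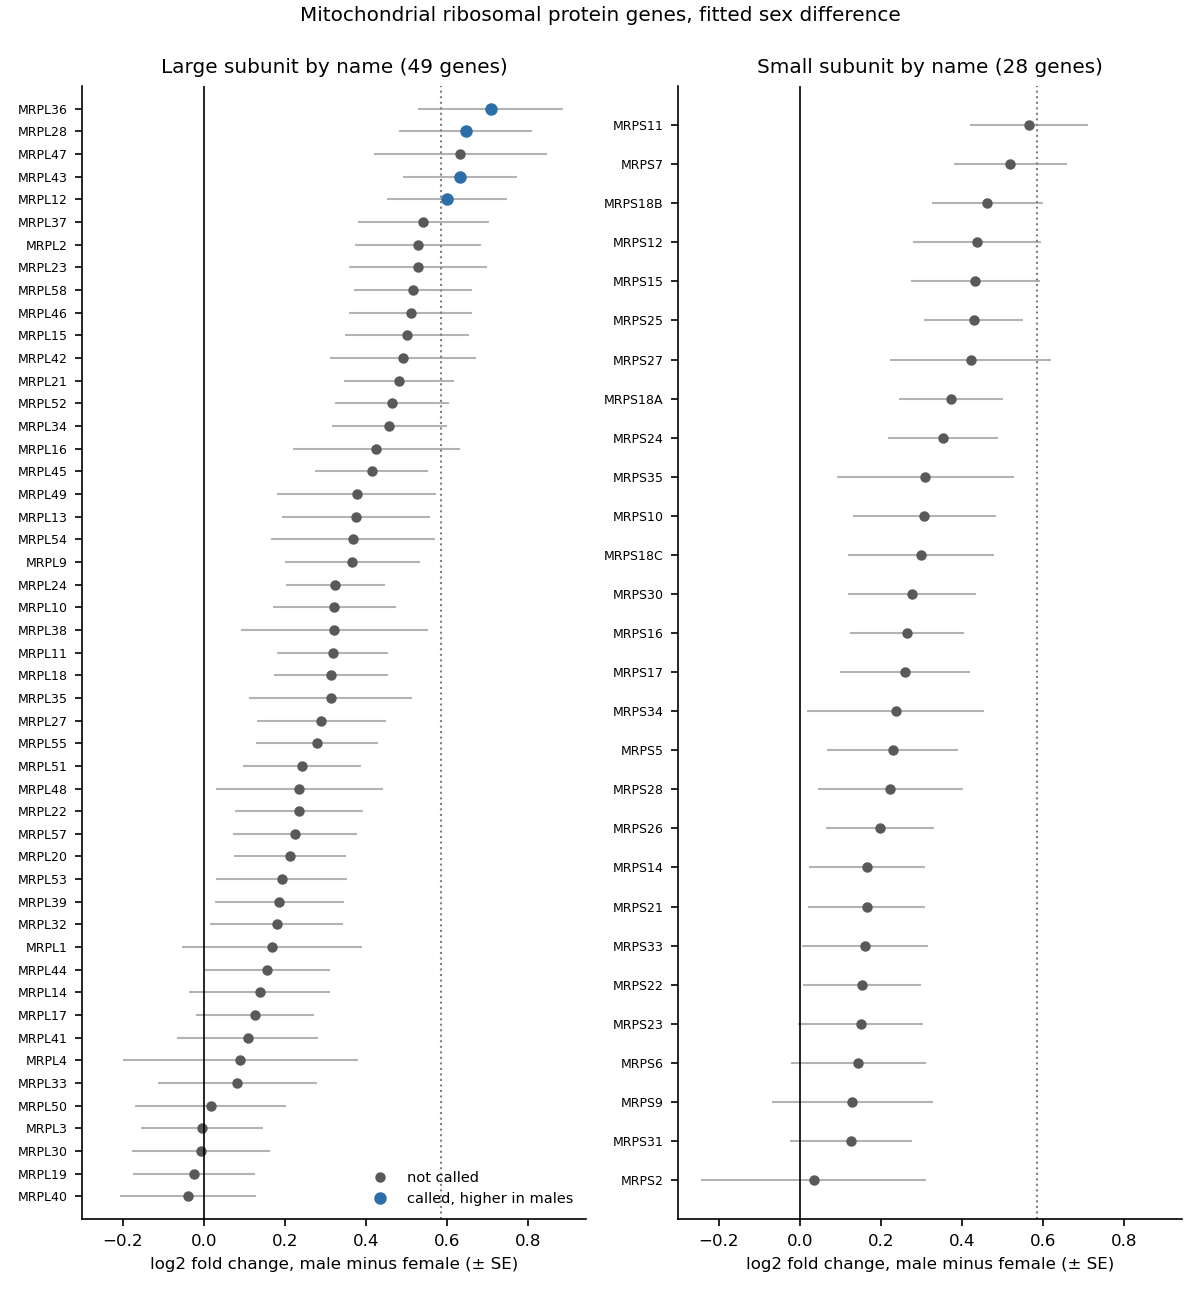
Fitted log2 fold change, male minus female, of each tested member by subunit, with its standard error as a horizontal bar. The solid line marks 0 and the dotted line the fold of 1.5. Of the 77 points, 73 lie right of 0 and the 4 blue ones, all of the large subunit, were called.

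The called members were MRPL43, MRPL12, MRPL36 and MRPL28, all of the large subunit. The study lists the same genes as sex-biased from these libraries, so that their call is no independent evidence. They sit on different autosomes, and their annotated spans overlap no other gene.

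MRPL43 is a protein of the large subunit found in mitochondria and not in bacteria. Its gene lies on chromosome 26 at 21823622 to 21824790 (ARS-UCD2.0). In females it ranged from 49.2 to 72.3 CPM with a median of 69.2, and in males the 5 libraries were at 88.7, 123, 78.5, 111 and 121 CPM. No male pool reached down to the highest female. The log2 fold change was 0.63 (SE 0.14) with an FDR of 0.0616, the smallest among the members (edgeR).

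MRPL12 is the homolog of the bacterial stalk protein, which contacts the translation factors, and it has also been described to bind the mitochondrial RNA polymerase. Its gene is on chromosome 19 at 51118070 to 51122424. Females ranged from 113 to 158 CPM with a median of 138, and the males were at 211, 165, 197, 221 and 259 CPM. The groups did not overlap, with the second male pool the closest to the females. The log2 fold change was 0.60 (SE 0.15) with an FDR of 0.0874 (edgeR), and 0.54 without male replicate 5, which is below the fold that a call needs.

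MRPL36, whose bacterial homolog is among the smallest ribosomal proteins, is on chromosome 20 at 70845145 to 70849370. It had the largest fold change of the members tested. Females ranged from 46.9 to 80.9 CPM with a median of 58.7, and the males were at 89.8, 112, 69.3, 112 and 161 CPM. Male replicate 3 fell inside the female range, and the other 4 males were above it. In the fit it had 0.71 on the log2 scale (SE 0.18) with an FDR of 0.0933 (edgeR), and without male replicate 5 it was 0.58, just under the fold that a call needs.

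MRPL28, a homolog of a bacterial protein of the large subunit, is on chromosome 25 at 361870 to 364435. Females ranged from 48.0 to 64.2 CPM with a median of 55.2, and the males were at 77.0, 88.3, 74.2, 75.4 and 132 CPM. The groups did not overlap, and male replicate 5 was far above the other males. This gave a log2 fold change of 0.65 (SE 0.16) with an FDR of 0.0956 (edgeR), and 0.51 without that library, which is below the fold that a call needs.

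**Figure D2:**
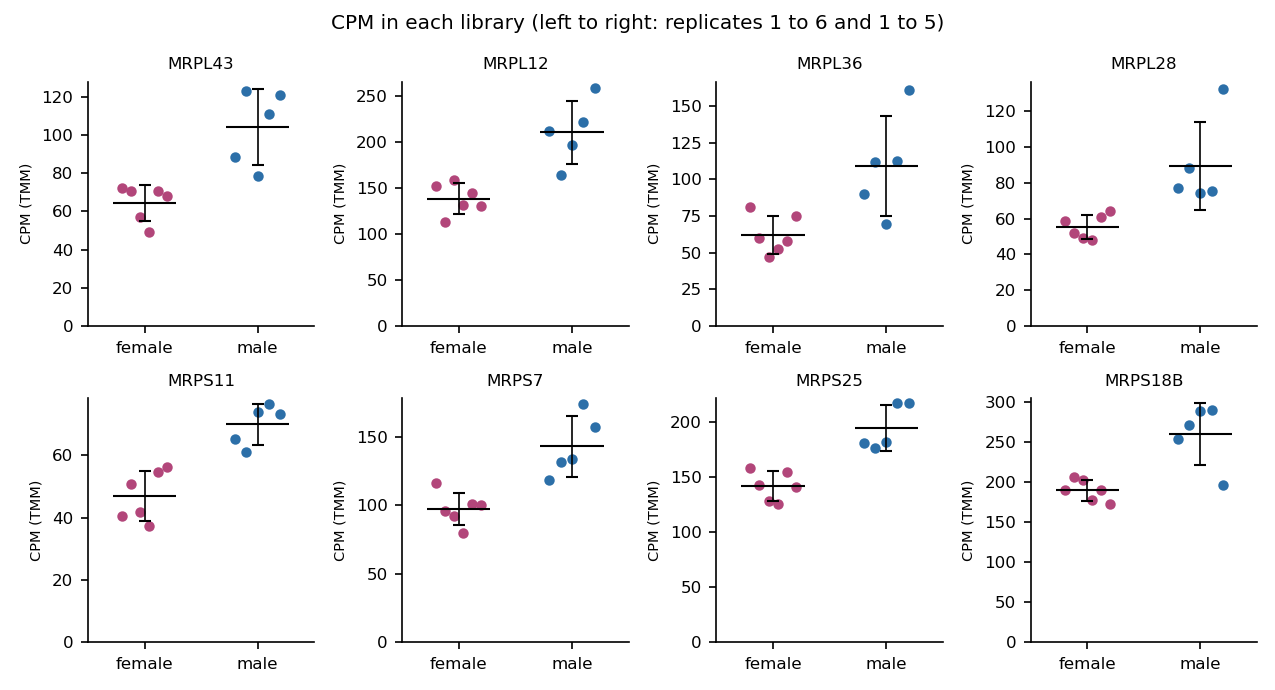
CPM of the 4 called members (upper row) and of the 4 small subunit members with the smallest p (lower row), one point for each library with the mean and SD of each sex. MRPL36 and MRPS18B each have 1 male library within the female range, and in the other 6 genes the sexes do not overlap.

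The members just outside the call were of both subunits. MRPS11, the closest, had an FDR of 0.101 and a log2 fold change of 0.57 (SE 0.15), so that it missed on both counts. MRPL47, a large subunit protein chosen here for its size of change after its values were seen, had a log2 fold change of 0.63 but an SE of 0.21 and an FDR of 0.222. Male replicate 5 was at 177 CPM for MRPL47, within the female range of 170 to 264 CPM, and the other males were at 330, 361, 337 and 433 CPM. The span of MRPL47 overlaps ACTL6A. Without male replicate 5, MRPL47 at 0.79 and MRPS11 at 0.60 on the log2 scale were called with MRPL43. In that fit MRPL12, MRPL28 and MRPL36 kept an FDR under 0.1 and lost the fold of 1.5.

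In the small subunit all 28 tested members had a log2 fold change above 0, from 0.03 for MRPS2 to 0.57 for MRPS11, and the median was 0.26. None was called by edgeR or by DESeq2, and 8 members or 28.6% had an unadjusted p under 0.05. In 4 of them, MRPS7, MRPS11, MRPS18A and MRPS25, every male was above every female.

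MRPS11 belongs to the platform of the small subunit and has a bacterial homolog. Its gene is on chromosome 21 at 19484233 to 19495139. Females ranged from 37.3 to 56.4 CPM with a median of 46.3, and the males were at 65.3, 61.0, 73.8, 76.4 and 73.3 CPM. The males were the tighter group here, with an SD of 6.53 CPM, and none reached down to the highest female.

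MRPS7 is the homolog of a bacterial protein that organises the head of the small subunit. Females ranged from 80.0 to 116 CPM with a median of 97.9, and the males were at 119, 132, 133, 173 and 157 CPM. Male replicate 1 was barely above female replicate 1. MRPS7 had a log2 fold change of 0.52 (SE 0.14) with an FDR of 0.118 (edgeR). Its span on chromosome 19 overlaps MIF4GD, and reads of the pair may not be told apart, since the strand setting of the counting is not given in the sources used here.

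MRPS25 is a protein of the small subunit with no bacterial homolog. Females ranged from 126 to 158 CPM with a median of 142, and the males were at 181, 177, 182, 217 and 218 CPM. The lowest male was above the highest female, by less than the range within either sex. The log2 fold change of 0.43 (SE 0.12) had the smallest standard error of any member, with an FDR of 0.138 (edgeR). Its span overlaps uncharacterised genes on chromosome 22.

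MRPS18A, MRPS18B and MRPS18C are related copies of a single bacterial protein. MRPS18C takes the place of that protein in the small subunit, MRPS18B sits elsewhere in the small subunit, and MRPS18A sits in the large subunit despite its name. MRPS18A females ranged from 72.7 to 90.1 CPM with a median of 80.8, and the males were at 98.5, 102, 103, 114 and 111 CPM. The sexes did not overlap for MRPS18A, which had a log2 fold change of 0.37 (SE 0.13) and an FDR of 0.233 (edgeR).

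MRPS18B females ranged from 172 to 206 CPM with a median of 190, and the males were at 254, 271, 289, 291 and 197 CPM. Only male replicate 5 fell into the female range, and the log2 fold change was 0.46 (SE 0.14) with an FDR of 0.155 (edgeR). MRPS18C females ranged from 127 to 194 CPM with a median of 158, and the males were at 185, 163, 191, 268 and 143 CPM. For MRPS18C the sexes overlapped in all but male replicate 4, with a log2 fold change of 0.30 (SE 0.18) and an unadjusted p of 0.122 (edgeR). The 3 copies therefore all had values above 0, of which only MRPS18C had an unadjusted p over 0.05, and the differences among them were not tested. Without male replicate 5 the unadjusted p of MRPS18C was 0.030 (edgeR).

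MRPS30, a mitochondria-specific protein that sits in the large subunit, had females from 87.6 to 143 CPM with a median of 102 and males at 133, 175, 105, 148 and 134 CPM. The sexes overlapped, and the log2 fold change was 0.28 (SE 0.16) with an unadjusted p of 0.105 (edgeR). MRPS36 had 0 counts in all 11 libraries, where 3 counts would be between 0.145 and 0.413 CPM, a limit that covers counting error only. Its gene is annotated on chromosome 20 at 10467519 to 10475679 with the synonym KGD4, and the protein is now assigned to the oxoglutarate dehydrogenase complex and not to the ribosome.

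Among the large subunit members 45 of 49 had a log2 fold change above 0, and the median was 0.32. In 7 of them every male was above every female, namely MRPL12, MRPL18, MRPL21, MRPL24, MRPL28, MRPL43 and MRPL52. At an unadjusted p under 0.05, 20 or 40.8% were higher in males. Beside the called genes these include MRPL58, the peptidyl-tRNA hydrolase that became part of the mitochondrial ribosome, with a log2 fold change of 0.52 (SE 0.15). They also include MRPL21, at 170 to 205 CPM in females and 222 to 334 CPM in males. MRPL58 and MRPL21 were chosen from that list after their values were seen, and their FDR was 0.134 and 0.133 (edgeR).

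The 4 members that were not above 0 were also of the large subunit. MRPL3, whose bacterial homolog reaches towards the peptidyl transferase centre, averaged 107 ± 15.0 CPM in females against 110 ± 17.5 CPM in males (SD, n = 6 and 5). MRPL19, a homolog of a protein at the interface of the subunits, averaged 156 ± 38.0 CPM in females against 160 ± 28.9 CPM in males (SD, n = 6 and 5). The fitted log2 fold changes, with the library number as a block, were -0.0044 for MRPL3 and -0.02 for MRPL19, and both were above 0 in a fit without the block. Without male replicate 5 they were -0.011 and -0.056.

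MRPL30 averaged 109 ± 14.5 CPM in females against 106 ± 23.8 CPM in males (SD, n = 6 and 5), with a log2 fold change of -0.0074. In male replicate 5 it was at 65.4 CPM, and without that library the log2 fold change was 0.11. MRPL40 had the lowest value, -0.04 (SE 0.17), with females from 29.9 to 60.0 CPM and males at 38.9, 34.0, 64.5, 36.6 and 44.1 CPM. None of the 4 had an unadjusted p under 0.81 (edgeR). The 95% interval of MRPL40 was from -0.37 to 0.29, by a normal approximation that is narrow for so few libraries. It leaves room for a difference of either sign.

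**Figure D3:**
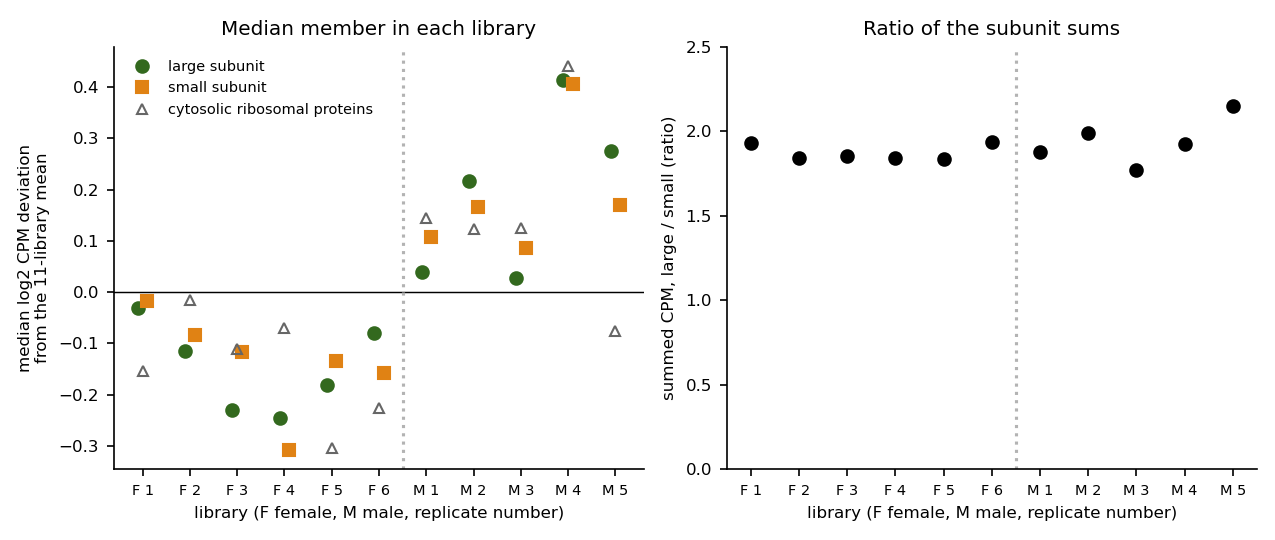
Left, the median over members of log2 CPM minus each gene's mean over the 11 libraries, for the large and the small subunit and the cytosolic ribosomal proteins. Right, summed CPM of the large over the small subunit. The mitochondrial medians are below 0 in all 6 females and above 0 in all 5 males, and the ratio is between 1.77 and 2.15 throughout.

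The subunits were compared within each library. Summed over its members the large subunit averaged 6209 ± 313 CPM in females against 7900 ± 919 CPM in males (SD, n = 6 and 5), with the lowest male at 7094 and the highest female at 6632 CPM. The small subunit averaged 3313 ± 127 CPM in females against 4072 ± 454 CPM in males (SD, n = 6 and 5), with the lowest male at 3725 and the highest female at 3462 CPM. In both subunits the sexes did not overlap, and without male replicate 5 the male means were 7872 and 4159 CPM. The male mean was 1.27 times the female mean for the large subunit and 1.23 times for the small one.

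The ratio of the sums, large over small, was 1.87 ± 0.0476 in females against 1.94 ± 0.142 in males (SD, n = 6 and 5). The females were between 1.84 and 1.94, and the males were at 1.88, 1.99, 1.77, 1.92 and 2.15. Male replicate 5 was the highest of all libraries and male replicate 3 the lowest, so that the sexes overlapped. Without male replicate 5 the male mean was 1.89. These sums depend on transcript lengths, which were not at hand, so that the ratio is read between libraries and not as the stoichiometry of the subunits.

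The medians of the log2 fold changes, 0.32 for the large and 0.26 for the small subunit, differed by 0.05, and without male replicate 5 they differed by 0.02. The range of values was wider in the large subunit, from -0.04 to 0.71, than in the small subunit, from 0.03 to 0.57. With MRPS30 and MRPS18A counted where they sit, the medians were 0.32 for 51 large subunit members and 0.25 for 26 small subunit members. No test was made of the difference between the subunits, since the genes of one library are not replicates.

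The medians were also taken by the origin of the proteins. In the large subunit the median was 0.32 for the 29 members with a bacterial homolog, 3 of them called, and 0.32 for the 21 mitochondria-specific ones, 1 of them called. In the small subunit it was 0.26 for 16 members with a bacterial homolog and 0.22 for 10 mitochondria-specific ones, with 0 called by edgeR in either set, and 5 and 2 of them at an unadjusted p under 0.05. Here MRPS30 and MRPS18A were counted with the large subunit, MRPL55 and MRPS36 were left out as unclassified, and MRPS18A and MRPS18B were counted as mitochondria-specific by their positions. Counted with the bacterial homologs by their sequence family, they gave medians of 0.32 for 30 homologs against 0.30 for 20 others in the large subunit and 0.27 for 17 against 0.20 for 9 in the small one. With that assignment 6 homologs and 1 other member of the small subunit were at an unadjusted p under 0.05.

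The members lie on 27 chromosomes, with 9 on chromosome 11 and 8 on chromosome 19, and none on the X or Y chromosome. The closest pair was MRPL46 and MRPS11 on chromosome 21, one gene of each subunit, whose annotated spans are 75 bases apart with no gene between them. MRPL46 averaged 57.1 ± 7.70 CPM in females against 83.7 ± 13.6 CPM in males (SD, n = 6 and 5). Its log2 fold change was 0.51 (SE 0.15), next to 0.57 for MRPS11. The pair was chosen for its position.

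**Figure D4:**
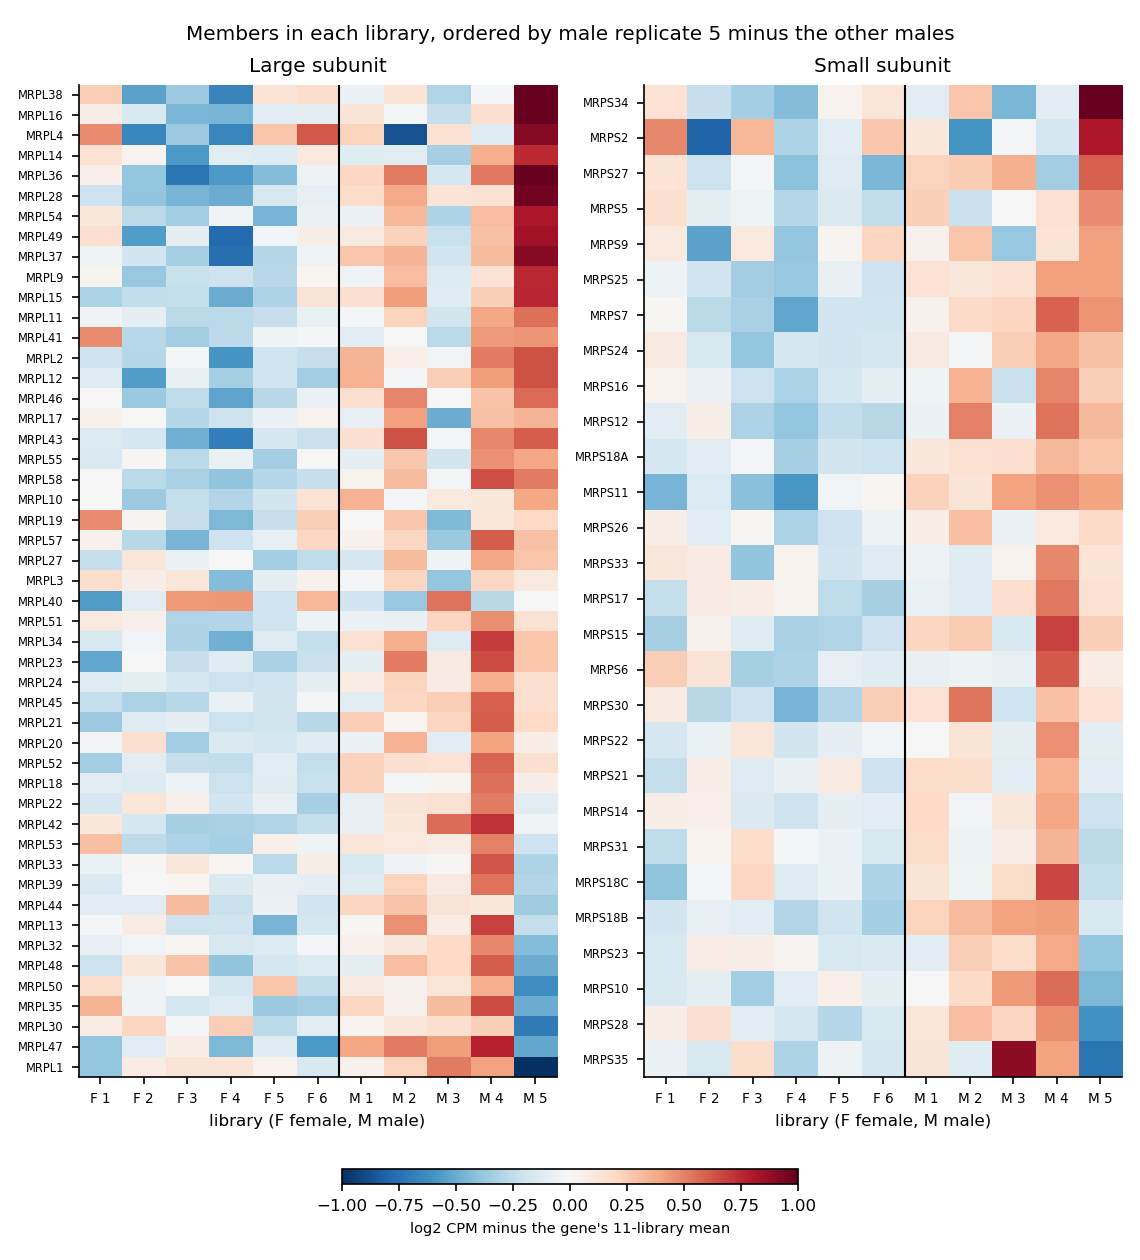
Log2 CPM of each tested member minus its mean over the 11 libraries, with female libraries left and male libraries right of the line and the genes ordered by male replicate 5 minus the other males. Colours stop at 1 in either direction. Male replicate 4 is high over most of both panels, and male replicate 5 runs from high at the top to low at the bottom.

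The libraries were not alike in how they carried the difference. Of the 77 tested members, 43 had their highest value in male replicate 4 and 22 in male replicate 5, and 5 and 3 had it in male replicates 2 and 3. No member was highest in male replicate 1, and 4 were highest in a female pool. The lowest value was in a female pool for 59 members, 25 of them in female replicate 4, and in male replicate 5 for 15. Male replicate 4 was high over both subunits, with a median log2 deviation of 0.41 in each. In the fit without it the median log2 fold changes were 0.21 for the large and 0.18 for the small subunit.

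Male replicate 5 was high for some members and low for others. Against the mean of the other males, 43 members were higher and 34 were not. MRPL38, MRPS34, MRPL16 and MRPL4 were more than 2-fold higher in it, and MRPL1, MRPS35 and MRPL47 more than 2-fold lower. The extremes were 1.29 on the log2 scale for MRPL38 and -1.31 for MRPL1. Across the 77 members this difference had a Spearman correlation of -0.40 with the annotated gene span, a description across genes that share libraries and no test. No RNA quality was given for the libraries in the sources used here, and the part of RNA or amplification in this pattern was not tested.

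The most variable members showed the same library. MRPL38, a mitochondria-specific protein, was at 171 CPM in male replicate 5 and at 70.1, 80.2, 59.0 and 72.3 CPM in the other males, with females from 46.1 to 86.2 CPM. Its log2 fold change was 0.32, and 0.07 without that library. MRPL4, which has a bacterial homolog, had the largest dispersion of the members, with a biological coefficient of variation of 0.351 where the members' median was 0.208 and that of all tested genes 0.348. It ranged from 19.4 to 46.8 CPM in females and from 16.7 to 57.4 CPM in males, and the sexes overlapped over most of their ranges. Its log2 fold change was 0.09 (SE 0.29), and -0.06 without male replicate 5.

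In the small subunit MRPS2 and MRPS35 were the most variable. MRPS2 ranged from 24.5 to 59.9 CPM in females, and the males were at 46.2, 28.3, 42.6, 38.2 and 74.9 CPM. The log2 fold change was 0.03 (SE 0.28), and -0.17 without male replicate 5. MRPS35 had females from 95.3 to 133 CPM and males at 129, 109, 219, 156 and 71.2 CPM, so that the highest and the lowest of all libraries were both male. Its log2 fold change was 0.31 (SE 0.22), and 0.47 without male replicate 5.

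Most members were higher in males within each library number, the first number of a library's name. It was used in place of the collection week, although no label says that it marks one. With number 1, of 2 female and 2 male pools, 62 of the 77 members were higher in males, and the median differences of mean log2 CPM were 0.20 for the large and 0.19 for the small subunit. With number 2, of 2 female pools and 1 male pool, 63 were higher, with medians of 0.26 and 0.19. With number 3, of 2 female and 2 male pools, which includes male replicates 4 and 5, 71 were higher, with medians of 0.48 and 0.41. The medians over all tested genes were between -0.02 and 0.01.

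The cytosolic ribosomal proteins, taken by symbol as RPL or RPS and a digit, showed values of the same size. Of 81 such genes 77 were tested, and 73 had a log2 fold change above 0 with a median of 0.31, beside 0.30 for the mitochondrial members. RPL22L1, RPL36 and RPL13A were called higher in males, where 0.414% of all tested genes were, and the X-linked RPL39 was called higher in females, where 1.5% were. Every male was above every female in 19 cytosolic genes and 11 mitochondrial ones, beside 1.43% of all tested genes. Every male was below every female in 3 and 0, beside 1.88% of all tested genes and 88 of the 12172 autosomal ones. At an unadjusted p under 0.05, 39 cytosolic genes were higher in males and 4 in females, against 6.26% and 6.95% of all tested genes. The median biological coefficient of variation of the cytosolic genes was 0.192, against 0.348 for all tested genes. The difference between the families was not tested. In male replicate 5 the families parted, as the median log2 deviation was -0.08 for cytosolic genes, 0.28 for the large and 0.17 for the small mitochondrial subunit. In male replicate 4 that deviation was 0.44 for cytosolic genes and 0.41 for each mitochondrial subunit.

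**Figure D5:**
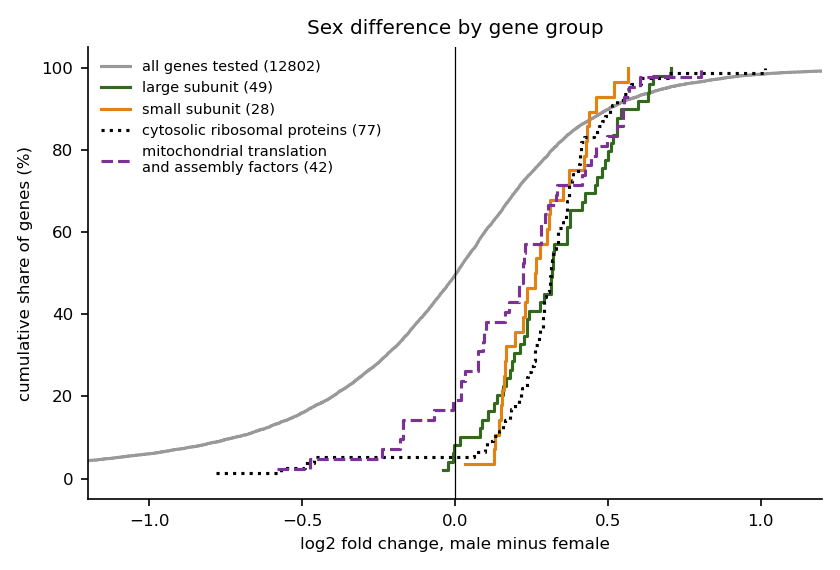
Cumulative share of genes by fitted log2 fold change, male minus female, for all tested genes, both mitochondrial subunits, the cytosolic ribosomal proteins, and the mitochondrial translation and assembly factors together. The curve of all genes crosses 0 near the middle, whereas 73 of 77 mitochondrial and 73 of 77 cytosolic ribosomal genes lie above 0. The horizontal axis is cut at both ends.

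Other genes of mitochondrial translation were followed in lists. None of the 52 tested genes of these lists was called by edgeR, where 1.91% of all tested genes were. At an unadjusted p under 0.05, 7 or 13.5% were higher in males, against 6.26% of all tested genes, and 0 were higher in females. DESeq2 called 1 of the 52, RPUSD4. The 5 subunits with other names, DAP3, PTCD3, CHCHD1, AURKAIP1 and GADD45GIP1, all had log2 fold changes above 0, from 0.08 for DAP3 to 0.48. Leaving out male replicate 5, DAP3 was at -0.01 and the other 4 were above 0. AURKAIP1, the highest, ranged from 91.5 to 131 CPM in females, and the males were at 164, 146, 102, 181 and 214 CPM. Male replicate 3 lay inside the female range, and the unadjusted p was 0.0148 (edgeR).

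Of the list of mitochondrial translation factors, 13 of 14 were tested, 10 were above 0, and the median was 0.21. With male replicate 5 left out, 12 were above 0 and the median was 0.22. Beside factors that start, extend and end translation, the list holds MTFMT, TACO1, LRPPRC and SLIRP. MRRF, which recycles the ribosome after termination, averaged 72.7 ± 10.6 CPM in females against 102 ± 11.5 CPM in males (SD, n = 6 and 5). Every male was above every female for MRRF, and its log2 fold change was 0.50 (SE 0.15) with an unadjusted p of 0.00655 and an FDR of 0.17 (edgeR). TUFM, the elongation factor that brings the tRNA, was between 56.8 and 60.7 CPM in females and at 92.8, 65.6, 59.8, 71.5 and 156 CPM in males, with a log2 fold change of 0.53 (SE 0.22) that was 0.28 without male replicate 5. SLIRP, an RNA-binding partner of LRPPRC, was at 0.41 (SE 0.19). MTFMT, which formylates the initiator tRNA, was lowest with a log2 fold change of -0.17 (SE 0.16), or -0.11 without male replicate 5, and an unadjusted p of 0.317 (edgeR). TACO1 had at most 10 counts in any library and was not tested.

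Of the factors that assemble the mitochondrial ribosome, modify its rRNA or control its quality, 29 of 30 were tested, 24 were above 0, and the median was 0.23. When male replicate 5 was left out, 20 were above 0 and the median was 0.15. C1QBP, an acidic matrix protein needed for mitochondrial translation, was the only one with an FDR under 0.1. It was at 515, 554, 589, 438, 638 and 634 CPM in the females and at 873, 805, 791, 902 and 841 CPM in the males. The sexes were far apart, and the log2 fold change of 0.57 (SE 0.12) had an FDR of 0.0558 but lay below the fold of 1.5 (edgeR).

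RPUSD4, a pseudouridine synthase of the mitochondrial rRNA, had the largest value at 0.80 (SE 0.27), with 10.4 ± 2.37 CPM in females against 18.8 ± 6.65 CPM in males (SD, n = 6 and 5) and an FDR of 0.217 (edgeR). SPG7, a subunit of the matrix protease that processes a ribosomal protein, was at -0.58 (SE 0.35) with an unadjusted p of 0.122 (edgeR). Without male replicate 5, C1QBP was called higher in males with 0.60 and SPG7 higher in females with -0.999 on the log2 scale.

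The rRNAs and mRNAs that come from mitochondrial DNA were also counted, and none was called by edgeR, where 1.91% of all tested genes were. The small-subunit rRNA, bases 431 to 1385 of the mitochondrial genome, averaged 3535 ± 1038 CPM in females against 3665 ± 897 CPM in males (SD, n = 6 and 5), with an unadjusted p of 0.762 (edgeR) and a log2 fold change of 0.07, or 0.13 without male replicate 5. The large-subunit rRNA, bases 1453 to 3023, averaged 6885 ± 2272 CPM in females against 5455 ± 1376 CPM in males (SD, n = 6 and 5), with an unadjusted p of 0.316 (edgeR) and a log2 fold change of -0.24, or -0.16 without male replicate 5. The sexes overlapped for both rRNAs.

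The 13 protein-coding genes of the mitochondrial genome, listed by locus tag, had log2 fold changes from -0.09 to 0.32, with 12 above 0 and a median of 0.09. Of these, 0 had an unadjusted p under 0.05, against 6.26% of all tested genes higher in males and 6.95% higher in females. Male replicate 5 was the lowest of the 11 libraries in 11 of the 13. Without it all 13 were above 0, from 0.09 to 0.54, with a median of 0.26 and 4 at an unadjusted p under 0.05, and 0 were called (edgeR). Of the nuclear genes that transcribe this genome, 3 of 5 were above 0 with a median log2 fold change of 0.05, and without male replicate 5, 4 were above 0 with a median of 0.32. The mitochondrial RNA polymerase POLRMT averaged 11.8 ± 2.05 CPM in females against 8.65 ± 2.96 CPM in males (SD, n = 6 and 5), or -0.46 on the log2 scale (SE 0.26) with an unadjusted p of 0.105 (edgeR), and -0.29 without male replicate 5. TEFM, an elongation factor of mitochondrial transcription, had the highest value of the 5, at 0.25 (SE 0.20), and was at 0.42 without male replicate 5, with an FDR of 0.139 (edgeR). TFAM, which packages mitochondrial DNA and activates its transcription, averaged 210 ± 35.4 CPM in females against 204 ± 59.2 CPM in males (SD, n = 6 and 5). It was at -0.0044 on the log2 scale, and at 0.15 without male replicate 5. Whether the nuclear and the mitochondrial genes differ from each other in these values was not tested.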

How the data were processed

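Gene counts of 6 female and 5 male pools were analysed, and an Iso-seq sample of 4-cell embryos was not analysed here. The authors used fastp 0.20.0 for trimming and STAR 2.7.10b for alignment, allowing at most 3 mismatches, and deposited whole-number counts per gene from featureCounts, without normalization, on ARS-UCD2.0. Strand and multi-mapping settings are not given in the sources used here. Where genes overlap or share reads, a count may belong to a neighbour, which concerns 23 members. Beside MRPS7 and MRPS25, the members MRPL3, MRPL16, MRPL30, MRPL38, MRPL40, MRPL47, MRPS18C and MRPS35 are among them.

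Counts were filtered with filterByExpr by sex (12802 genes) and tested with edgeR 4.0.16 (quasi-likelihood, TMM factors) in R 4.3.3, with the library number, from 1 to 3, as a block in place of the collection week. No label says that this number marks a week. Female and male pools with the same library number had correlations of their deviations across genes from -0.11 to 0.35, and those with different numbers from -0.30 to 0.24, so that the number is not shown to mark a batch. The study used DESeq2, run here (1.42.0) as an alternative. Adjusted p-values are Benjamini-Hochberg over all genes tested, called at an FDR under 0.1 and a fold over 1.5. Log2 CPM used a prior count of 2. Positions, synonyms and overlaps came from RefSeq, in which all 78 symbols matched. Sums and medians over members carry no test. Values used python 3.11.15 with pandas 2.3.3. On simulated counts of the 12802 genes the test for males against females recovered 40% of changes of a log2 of 1 and 78% of a log2 of 2, and 7.09% of calls were false. The changed genes were drawn from all tested genes, whose median biological coefficient of variation was 0.348, against 0.208 for the members. No effect of the library number was simulated. The rates therefore do not describe the members, whose fold changes were smaller.

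The members and lists were chosen with earlier results of these data known. Members named singly are the called ones, the 4 with the smallest p in each direction and the 2 with the largest dispersion in each subunit, the one not tested, and MRPS18A, MRPS18B, MRPS18C and MRPS30. The others were chosen after their values were seen. A rule on levels per coding length could not be applied, since no coding lengths were at hand, and no sequences were used. Pools are separate embryos, so that p-values measure the spread between pools. Intervals and limits cover counting error only where no replicates stand behind them. Alternatives were fits without the block or with the title number as a block, DESeq2, RLE factors, TMM factors from autosomal genes, other filters and thresholds, and fits without each library. Counting MRPS18A and MRPS18B as bacterial homologs and the values of other genes without male replicate 5 were added after seeing the data.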

Additional observations from a re-analysis of the deposited data

Results flagged for a closer look

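Dixon's test at its 95% critical value was run on 44 groups of libraries for a value far from the rest of its sex. These were the tested members named by rule, the sums of both subunits and their ratio, with the sexes apart. Some of these members were named for a large dispersion or a small p, so that the rate of 1 in 20 under chance does not apply. Over all 77 tested members, male replicate 5 held such a value in 4 and male replicate 4 in 3. Female replicate 1 held one in 2, and female replicates 3 and 6 in 1 each. Of the 44 groups 4 had such a value, and male replicate 5 held 3 of these. MRPL28 was highest there at 132 CPM, MRPL38 was highest there at 171 CPM, and MRPL30 was lowest there at 65.4 CPM. The summed CPM of the small subunit was highest in male replicate 4 at 4855 CPM, above 4007 CPM in the next male.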

How the results depend on the processing

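The count of 4 called members was 4 with no replicate block, with DESeq2, with RLE factors, with the stricter filter and with no minimum fold, each time MRPL12, MRPL28, MRPL36 and MRPL43, and 5 with no filter, where MRPL47 was added. It was 1 (MRPL43) with TMM factors from autosomal genes, and 0 with the title number as replicate block, with glmTreat and at an FDR of 0.05. Without one library it was 0 to 3. Leaving out any of female replicates 2, 4, 5 and 6 and male replicates 2 and 3 gave 0, leaving out male replicate 1 gave 1, and leaving out female replicate 1, female replicate 3 or male replicate 4 gave 2. Members above 0 stayed between 71 and 75, and those past an unadjusted p of 0.05 between 21 and 34, over the same fits. Without one library the medians were 0.21 to 0.36 for the large and 0.18 to 0.30 for the small subunit, both lowest without male replicate 4. Within library number 3 the medians were 0.48 and 0.41. Over all genes 245 were called, 326 with no replicate block, 132 with the title number as block, 655 with DESeq2, 743 with no filter and 62 with glmTreat.

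With MRPS30 and MRPS18A in the large subunit the ratio of the sums was 2.13 in males and 2.05 in females, with medians in place of sums 1.10 and 1.07, and without one library 1.89 to 1.99 and 1.86 to 1.88. The companion genes had 0 calls, and 1 with no replicate block and with no minimum fold (C1QBP) and with DESeq2 (RPUSD4), and 0 to 2 without one library, with C1QBP called without female replicate 3 and C1QBP and SPG7 without male replicate 5. MRPL19 was above 0 with no replicate block (0.043) and with the title number as block (0.113), as was MRPL3 (0.044 and 0.054), which was also 8.1e-06 with DESeq2 and 0.00021 with RLE factors. Without one library MRPL19 was -0.106 to 0.058, MRPL3 -0.060 to 0.078, MRPL30 -0.175 to 0.105, MRPL40 -0.113 to 0.053, MRPL4 -0.106 to 0.319 and MRPS2 -0.166 to 0.285. The cause was not tested. Pools with the same title number did not deviate together in all of the 5 pairs. Correlations across genes were from -0.11 to 0.35, with 0.35 for replicates 3 and 0.24 for replicates 2. The number is therefore not shown to pair them. The order of members by level per coding length was not run.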
